A study of Homo sapiens with 24 samples.

Results

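The transcripts described here come from 6 libraries of A375, an established human melanoma cell line that carries the activated BRAF kinase, in which the gene GCDH was lowered by RNA interference. Of the 60504 rows of the expression table, 15185 reached a mean of at least 1 TPM (a transcript level already divided by transcript length and library size) over those 6 libraries and are the genes followed below. The series measured poly(A) RNA in 24 libraries of 8 groups: siGCDH and siControl, each with 3 replicates, in A375 as batch 1 and as batch 2, in SK-Hep1 and in cells labelled SKBR3. All groups are untreated apart from transfection with siRNA, the labels give no other allele or agent, and cells were harvested 48 h after transfection. The libraries followed here are those of batch 2: 3 of siControl, cells given a control siRNA, and 3 of siGCDH, cells given siRNA against GCDH. Cells were plated in triplicate and the labels do not say whether the 3 came from separate experiments, so the p-values measure only the spread between these samples, which may be technical. The sources used here give neither the number nor the sequences of the siRNAs, and a knockdown of this kind leaves part of the target transcript in place.

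GCDH encodes glutaryl-CoA dehydrogenase, which works in the mitochondrial matrix on the glutaryl-CoA that arises when lysine and tryptophan are degraded, and it hands electrons on to the electron transfer flavoprotein. The title of the series names melanoma and NRF2, the transcription factor that KEAP1 marks for destruction and that drives genes of glutathione, thioredoxin, iron and NADPH metabolism. Stressed cells use further programmes: the integrated stress response, in which phosphorylated eIF2alpha slows translation while ATF4 is made, and the p53 response, which stops the cell cycle and can start cell death.

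The 6 libraries were alike in makeup. Between 14917 and 14952 genes reached 1 TPM with siControl and between 15212 and 15331 with siGCDH, so that the 2 ranges did not overlap. Genes of the mitochondrial genome held 1.74 to 1.99% of the summed TPM and cytosolic ribosomal protein genes 19.4 to 20.5%. Pearson correlations of log2(TPM + 1) between replicates lay between 0.976 and 0.977. Read depth is unknown, since TPM does not keep it. Of 12 genes of the melanocyte lineage, 7 were at 1 TPM or more, led by SOX10 and including PAX3, S100B, S100A1, CSPG4, PRAME and MITF, while the pigment genes TYR, TYRP1, DCT and MLANA stayed under 1 TPM with siControl and PMEL lay between 0.51 and 1.58 TPM. The summed level of the lineage genes was 875 to 907 TPM with siControl and 837 to 910 TPM with siGCDH. The cells labelled SKBR3 go against that name, because ERBB2, which is amplified in the SKBR3 breast cancer line, had a mean of 25.5 TPM in their siControl libraries and 32.7 TPM in those of A375, a gene looked up for this check alone. They are called the libraries labelled SKBR3 throughout.

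GCDH fell in every siGCDH library. The gene (chromosome 19, 12891026 to 12914207, plus strand, GRCh38) was measured at 20.6, 22.7 and 19.3 TPM with siControl and 3.91, 3.41 and 3.83 TPM with siGCDH. All 3 siGCDH values lay under all 3 siControl values, and 17.8% of the control level remained (log2 fold change -2.21, SE 0.10, adjusted p = 1.41e-05, limma on log2(TPM + 1) with Benjamini-Hochberg adjustment over the 15185 genes, as for all adjusted p-values of batch 2 below). An exact permutation test over the 6 libraries gave a two-sided p = 0.1, the smallest that 3 against 3 can give. In bulk RNA of this kind, fewer cells of a type and less RNA per cell cannot be told apart.

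Around GCDH the pathway of lysine and tryptophan breakdown moved in both directions. Of 17 members tested, 2 were higher and 5 lower at an adjusted p of 0.05, beside 17.9% higher and 15.7% lower among all genes tested, and the median log2 fold change was 0.03 against 0.02 over all genes. ALDH7A1, which oxidises the semialdehyde of the lysine route before GCDH acts, was at 111, 122 and 107 TPM with siControl and 56.8, 48.8 and 45.6 TPM with siGCDH. The siGCDH libraries were all below the siControl libraries (log2 fold change -1.16, SE 0.09, adjusted p = 1.06e-04). AASS, the bifunctional enzyme that opens the saccharopine route of lysine, fell from 13.2 ± 0.99 to 9.69 ± 1.03 TPM (SD, n = 3, as in all means below), and AADAT, an aminotransferase of both the lysine and the tryptophan route, rose from 20.2 ± 2.32 to 26.7 ± 2.27 TPM. Their calls were borderline. AASS lost its call without siControl replicate 1, siControl replicate 3, siGCDH replicate 2 or siGCDH replicate 3 (adjusted p = 0.0507 to 0.0824), and AADAT without siControl replicate 1, siControl replicate 3, siGCDH replicate 1 or siGCDH replicate 3 (adjusted p = 0.0746 to 0.0822, limma). Without the filter neither was called (adjusted p = 0.0515 for AASS and 0.0516 for AADAT), and with the replicate block AADAT was not (adjusted p = 0.0577, limma). The 3 members of the step that makes glutaryl-CoA were not called: DHTKD1 had a log2 fold change of 0.07, DLST 0.01 and DLD -0.15. DLD was borderline, called at -0.20 without siControl replicate 3 (adjusted p = 0.0352, limma). It was also called lower with median scaling or a filter at a mean of 5 TPM (adjusted p = 0.0482 in both, limma). Quantile normalization gave the same call (adjusted p = 0.0344, limma). SUGCT, which makes glutaryl-CoA again from free glutarate, was at 2.9, 4.73 and 7.28 TPM with siControl and 11.5, 7.88 and 11.6 TPM with siGCDH and rose (log2 fold change 0.97, SE 0.28, adjusted p = 0.0305), a call lost without siControl replicate 1, siControl replicate 2, siGCDH replicate 1 or siGCDH replicate 3 (adjusted p = 0.0776 to 0.106, limma), without the filter (0.083) or without the trend (0.0594). ETFA and ETFB, the 2 chains of the electron transfer flavoprotein that takes electrons from GCDH, both fell, with log2 fold changes of -0.61 and -0.55. ETFDH, which passes those electrons to ubiquinone, was not called at 0.25, and neither were the carrier KYNU (0.10) and AFMID (0.08) of the tryptophan entry.

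**Figure D1:**
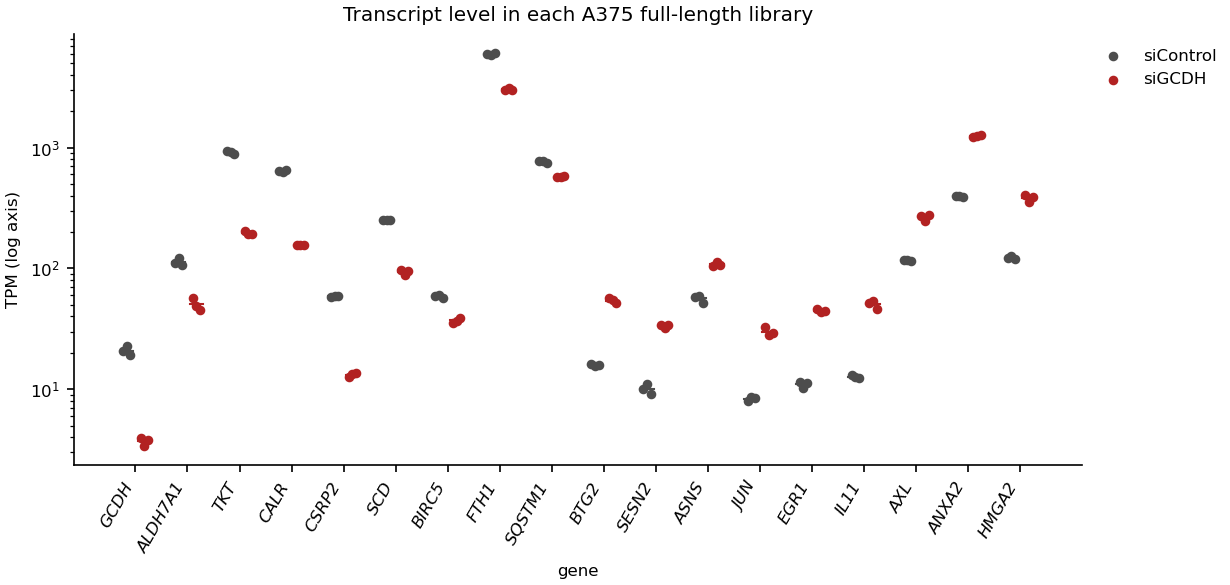
TPM of 18 genes in each library on a log axis, siControl and siGCDH side by side; dots are single libraries and short lines the means of 3. In each of the genes drawn the dots of the 2 groups do not overlap: GCDH, ALDH7A1, TKT, CALR, CSRP2, SCD, BIRC5, FTH1 and SQSTM1 are lower with siGCDH, and BTG2, SESN2, ASNS, JUN, EGR1, IL11, AXL, ANXA2 and HMGA2 higher.

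Beyond the pathway, 5099 of the 15185 genes (33.6%) were called, 2715 of them higher (17.9%) and 2384 lower (15.7%). In 7344 genes (48.4%) the values of the 2 groups did not overlap. Most called changes were small: 1578 of the rises and 1216 of the falls were under 0.5 on the log2 scale, while 292 genes rose and 225 fell by at least 1, and 25 rose and 18 fell by at least 2. The share called increased with the level. It was 584 of 4175 genes between 1 and 5 TPM, 33.1% of 4225 between 5 and 20, 43.4% of 5073 between 20 and 100 and 53.3% of 1712 at 100 TPM or more, with median standard errors of 0.23, 0.12, 0.08 and 0.05. A missing call at a low level therefore says less than one at a high level.

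**Figure D2:**
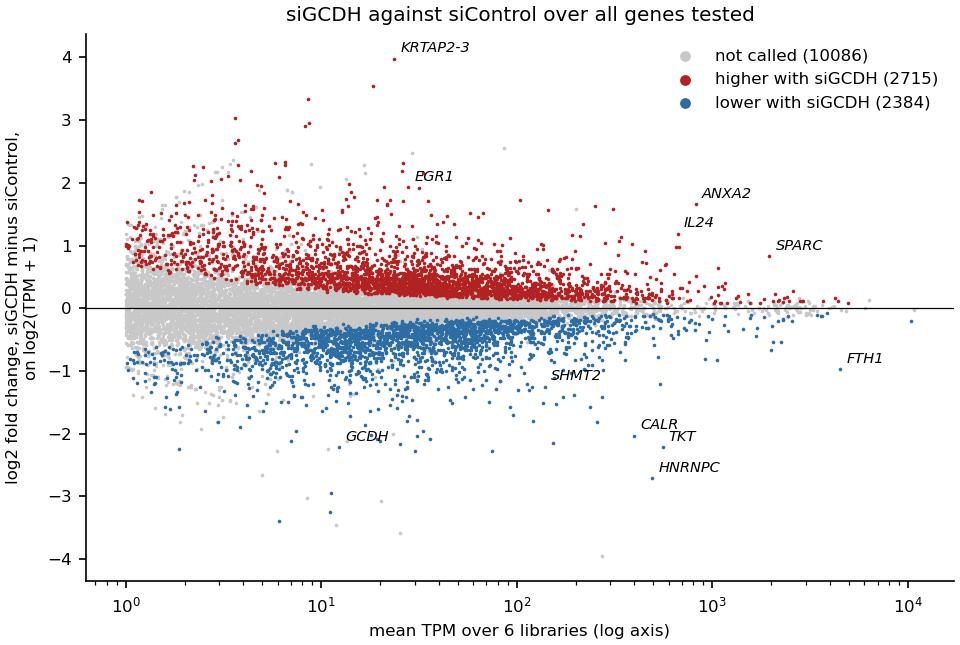
Log2 fold change (siGCDH minus siControl) of the 15185 genes against their mean TPM on a log axis, coloured by call: 2715 higher, 2384 lower and 10086 not called. The scatter of genes that were not called widens toward 1 TPM, and GCDH lies at -2.21.

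Several of the largest falls were in abundant transcripts. TKT, the transketolase of the pentose phosphate pathway, was at 931, 926 and 891 TPM with siControl and 205, 192 and 194 TPM with siGCDH. The siGCDH libraries were all far below the controls (log2 fold change -2.21, SE 0.04, adjusted p = 1.18e-07). CALR, a calcium-binding chaperone of the endoplasmic reticulum, was at 638, 624 and 657 TPM with siControl and 156, 156 and 157 TPM with siGCDH, again without overlap between the groups (log2 fold change -2.03, SE 0.03, adjusted p = 1.18e-07). CSRP2, a LIM-domain protein of the actin cytoskeleton, was at 58, 59.5 and 59 TPM with siControl and 12.5, 13.3 and 13.7 TPM with siGCDH. It fell in all 3 siGCDH libraries (log2 fold change -2.08, SE 0.06, adjusted p = 2.35e-06). AHCY, which hydrolyses S-adenosylhomocysteine, fell from 189 ± 3.88 to 53.4 ± 3.59 TPM, ERLIN1, a lipid-raft protein of the endoplasmic reticulum, from 50.1 ± 2.65 to 11.5 ± 0.632 TPM, and SDC3, a syndecan of the cell surface, from 33 ± 1.53 to 6.95 ± 1.08 TPM. LZTFL1, a protein of ciliary transport, TAC1, which encodes the precursor of substance P, CLNS1A, an assembly factor of splicing particles, and CAB39L, a cofactor of the LKB1 kinase, fell with log2 fold changes of -2.02, -1.95, -1.81 and -1.82. PRR11 and DEPDC1, 2 genes of dividing cells, went from 53.3 ± 1.28 to 13.1 ± 0.879 TPM and from 42.8 ± 1.36 to 11.8 ± 1.61 TPM. CDKN1C, an inhibitor of cyclin-dependent kinases, went from 26.9 ± 5.55 to 6.69 ± 1.29 TPM and OGFRL1 from 6.61 ± 0.407 to 1.05 ± 0.0723 TPM. The heterogeneous ribonucleoprotein HNRNPC (-2.71), the chemokine CCL2 (-2.28), the RAC1 inhibitor CYRIB (-2.27), the mitotic kinase NEK7 (-2.16), the acute-phase serpin SERPINA3 (-2.15) and the hydrolase BPHL (-2.12) were also among the 20 largest falls that met the naming rule given below. Those 20 are the genes of this paragraph and GCDH without DEPDC1, named for its difference between the cell lines. Over all genes tested, called or not, the lowest log2 fold change was -3.95.

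Many of these falling transcripts share a 7-base sequence in their 3' untranslated region (UTR). The sequence ACTGAGA came from an earlier pass over these same data, so its counts below are a description and carry no test. The windows are 29 bases of the GENCODE 29 transcripts on GRCh38, 5' to 3' along the transcript, with ACTGAGA in capitals: TKT (chr3:53225670-53225698, minus strand), NEK7 (chr1:198320851-198320879, plus strand), SDC3 (chr1:30872825-30872853, minus strand), CSRP2 (chr12:76858906-76858934, minus strand), ERLIN1 (chr10:100151718-100151746, minus strand), CALR (chr19:12944424-12944452, plus strand) and AHCY (chr20:34280450-34280478, minus strand). They are shown to let the flanks be compared, and no base outside the capital letters is the same in all of them.
TKT: ctcaaagatgtACTGAGAggaggggtaaa
NEK7: tcatgaagatgACTGAGAtggtaacactt
SDC3: ccacagtgctcACTGAGAtctcctttttg
CSRP2: aaacatcacacACTGAGAatctcttcata
ERLIN1: ttcaagagatgACTGAGAaggagatggta
CALR: gattggctcacACTGAGAatgtaagaact
AHCY: gttaaggggcaACTGAGAaagaacagaga
The last window below is from the coding sequence of GCDH itself, in exon 10 of 12 of its transcript (chr19:12897356-12897384, plus strand, from transcript base 1232), where the same 7 bases occur 1 time.
GCDH coding: cagacatgctcACTGAGAttaccctgggc

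Of the 20 largest falls named above, all of which had a 3' UTR to search, 12 carried ACTGAGA there, and of the 20 largest rises 12 had a 3' UTR to search and 0 carried it. Over all 12160 genes with a searched 3' UTR of at least 50 bases, 1753 (14.4%) carried it. Among genes lower by at least 1 on the log2 scale the share was 45.3% (87 of 192), and among genes higher by at least 1 it was 10.1% (17 of 169). Read the other way, 16.4% of the 10407 genes without the sequence were lower and 20.6% higher. With 1 copy (1477 genes) 29.2% were lower and 11.3% higher, and with 2 or more (276 genes) 35.9% were lower and 8.33% higher. The median log2 fold change was 0.03 without a copy, -0.11 with 1 and -0.23 with 2 or more.

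Long 3' UTRs hold more of any short sequence, so the shares were also taken within ranges of UTR length. In UTRs of 50 to 500 bases 45.7% of the 46 carriers were lower against 16.4% of the others. From 500 to 1500 bases the shares were 36.4% and 16.3%, from 1500 to 3000 bases 31.7% and 16.1%, and from 3000 bases 27% and 16.8%. The carriers were the more often lower in each of the 4 ranges, by the widest margin in the shortest UTRs. Where the single copy was followed by an A, 35.1% of 533 genes were lower, and where another base followed, 26% of 944. Small interfering RNAs are known to lower further transcripts that pair with the seed of their guide strand, in the manner of microRNAs. None of the 2545 mature microRNAs in the RefSeq table has the complementary seed. Since the siRNA sequences are not known here, the part of this 7-base sequence in any fall reported here was not tested, and carriers are named as such in the results that follow.

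**Figure D3:**
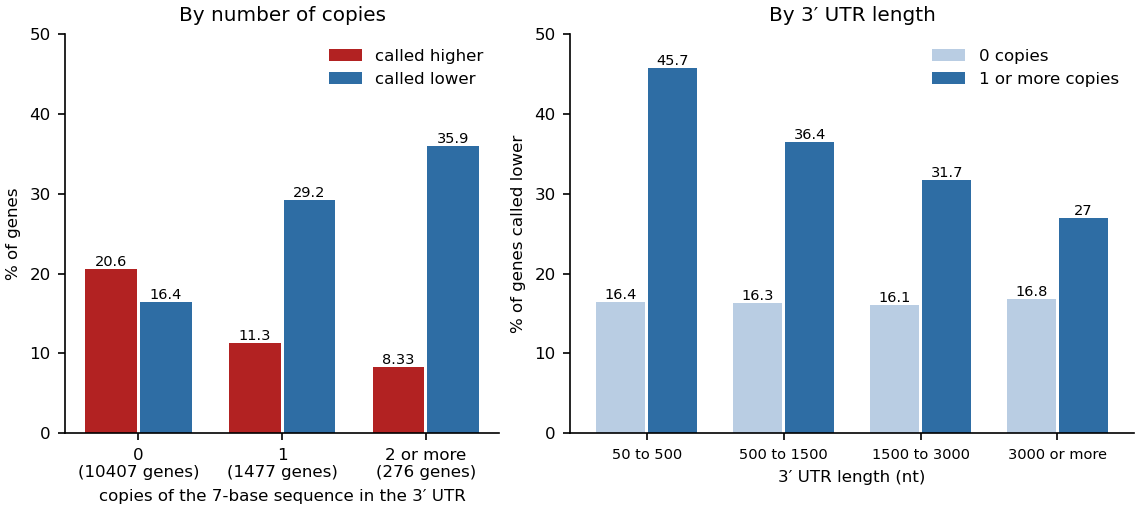
Left, percent of genes called higher or lower by the number of copies of the 7-base sequence in the 3' UTR (0, 1, 2 or more); right, percent called lower in 4 ranges of UTR length, without and with the sequence. The share lower rises from 16.4% to 29.2% and 35.9% with copies, and the carriers lie above the others in each length range.

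The same genes were looked up in the other cells. In batch 1 of A375, prepared with another kit, the median log2 fold change was -0.21 for genes without the sequence, -0.24 with 1 copy and -0.38 with 2 or more. In SK-Hep1 the medians were 0.15, 0.16 and 0.20, and in the libraries labelled SKBR3 0.20, 0.19 and 0.17. By number of copies, the medians were lower with 2 or more copies in both A375 batches, differed little in the libraries labelled SKBR3 and were not lower in SK-Hep1. Within the ranges of UTR length, shortest first, medians are given for carriers and then for the others. In batch 1 they were -0.75 and -0.32, -0.46 and -0.23, -0.30 and -0.12, and -0.17 and -0.09. In SK-Hep1 they were 0.00 and 0.17, 0.14 and 0.14, 0.14 and 0.15, and 0.20 and 0.17. In the libraries labelled SKBR3 they were 0.10 and 0.21, 0.15 and 0.19, 0.19 and 0.19, and 0.20 and 0.20. The shortest range held 40 to 43 carriers.

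The rises were led by transcripts that were scarce in the control cells. KRTAP2-3, a keratin-associated protein, had the largest fold among protein-coding genes (3.98), followed by the sphingosine 1-phosphate receptor S1PR1 (2.33), the long non-coding RNA LINC00973 (2.31) and the serpin SERPINB7 (2.19). IL1RL1, which encodes the receptor of interleukin-33, was at 0.43, 0.52 and 0.95 TPM with siControl and 6.22, 5.04 and 6.85 TPM with siGCDH. It stayed under 1 TPM in the controls (log2 fold change 2.11, SE 0.20, adjusted p = 2.68e-04). IL11, a cytokine of the interleukin-6 family, was at 13.1, 12.5 and 12.3 TPM with siControl and 51.7, 53.5 and 46.4 TPM with siGCDH. The 3 siGCDH libraries were well above the 3 controls, which were close together (log2 fold change 1.92, SE 0.08, adjusted p = 6.70e-06). PTHLH, the parathyroid hormone-like hormone, rose from 6.14 ± 1 to 23.4 ± 0.845 TPM, MMP1, the interstitial collagenase, from 1.33 ± 0.359 to 8.05 ± 0.982 TPM, and the p53-induced long non-coding RNA PURPL from 5.04 ± 1.06 to 22.6 ± 1.66 TPM. CLTRN, which encodes collectrin, rose by 1.95, the scaffold protein MPP4 by 1.83 and LINC03061 by 1.85 on the log2 scale. In absolute level the calcium- and lipid-binding protein ANXA2 was among the genes that gained most: it was at 400, 397 and 390 TPM with siControl and 1224, 1253 and 1278 TPM with siGCDH, without overlap (log2 fold change 1.66, SE 0.03, adjusted p = 1.18e-07). HMGA2, a chromatin protein of embryonic and tumour cells, was at 121, 127 and 120 TPM with siControl and 404, 352 and 389 TPM with siGCDH. Every siGCDH library was above every siControl library (log2 fold change 1.63, SE 0.06, adjusted p = 4.14e-06). Also among the 20 largest rises were rows that short or multi-copy genes make uncertain: the immunoglobulin pseudogene IGKV1OR9-2, the microRNA row MIR6807 (listed at 0 TPM in all 3 siControl libraries), the 5S pseudogene RNA5SP244, WASH7P, RPS18P5 and the readthrough gene RNASEK-C17orf49. No reading is given of their folds.

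Targets of p53 were mostly higher. Of the 34 tested members, 24 were higher and 1 lower, with a median log2 fold change of 0.58. BTG2, an antiproliferative gene, was at 16.1, 15.5 and 16 TPM with siControl and 56.7, 54.3 and 51.5 TPM with siGCDH. All siGCDH values were above all control values (log2 fold change 1.71, SE 0.06, adjusted p = 5.20e-06). The cell cycle inhibitor CDKN1A (1.58) and the growth arrest gene GADD45A (1.72) rose by similar amounts, and GADD45B, a carrier of ACTGAGA, by 0.82. SESN2, a sestrin that restrains mTORC1, that ATF4 induces as well, and a carrier, was at 10.1, 11.1 and 9.1 TPM with siControl and 34.1, 32.2 and 33.8 TPM with siGCDH. Its related gene SESN1 was at 12, 12.5 and 11.8 TPM with siControl and 27.9, 30 and 29.7 TPM with siGCDH. Neither sestrin showed any overlap between the groups (log2 fold change 1.64, SE 0.09, adjusted p = 2.24e-05 for SESN2, and log2 fold change 1.20, SE 0.07, adjusted p = 3.55e-05 for SESN1). Of the genes that act back on p53, the ubiquitin ligase MDM2, a carrier, rose by 1.57 and the phosphatase PPM1D from 17.9 ± 0.693 to 33.9 ± 0.673 TPM, while CCNG1, at a mean of 198 TPM with siControl and 200 TPM with siGCDH, was not called.

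Of the cell death genes of the p53 list, 7 of 10 were higher and 0 lower. BBC3, the BH3-only protein PUMA, was at 9.69, 10.8 and 8.43 TPM with siControl and 27.5, 28.9 and 26.9 TPM with siGCDH. The 3 siGCDH libraries were higher without overlap (log2 fold change 1.44, SE 0.10, adjusted p = 6.89e-05). The death receptor FAS rose from 23.8 ± 1.57 to 43.7 ± 1.7 TPM, the BH3-only protein PMAIP1 from 21 ± 0.538 to 33 ± 2 TPM, the pore-forming effector BAX, a carrier of ACTGAGA, from 254 ± 7.62 to 382 ± 9.57 TPM and the AKT inhibitor PHLDA3 from 87.5 ± 9.39 to 179 ± 9.31 TPM. Among repair and metabolic targets, RRM2B, the p53-inducible subunit of ribonucleotide reductase and a carrier, rose by 0.71, the damage sensor DDB2 by 0.58, ferredoxin reductase FDXR by 0.63, TRIAP1 by 0.62 and the stress cytokine GDF15 by 0.85. POLH, a translesion polymerase, was at 0.35 and not called, or 0.52 and called without siGCDH replicate 2 (adjusted p = 0.0243, limma). The BCL2 family as a whole had 8 of 15 members higher and 0 lower (median 0.41), and the rises included both sides: the survival proteins MCL1 (0.41), BCL2L1 (0.49) and BCL2A1 (1.00), the effectors BAX and BAK1 (0.64), and BAD (0.63) of the BH3-only group. BID (-0.13), BOK (-0.04) and BCL2L2 (0.12) were not called, though BID was without siGCDH replicate 3 (-0.21, adjusted p = 0.0464, limma). Leaving out the ACTGAGA carriers, the p53 list had 19 higher and 1 lower of 28, with a median of 0.57.

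Genes of the integrated stress response were mostly higher. In all, 25 of 42 tested members rose and 5 fell, with a median of 0.36, and without the ACTGAGA carriers 23 rose and 2 fell of 34. Without siControl replicate 1 or 2 the falls were 2, and without siControl replicate 3 or siGCDH replicate 2 or 3 they were 3. Among its transcription factors 7 of 8 were higher: ATF4 rose by 0.92, ATF3 by 2.15, DDIT3, which encodes CHOP, by 1.35, and CEBPB from 45 ± 2.18 to 69.5 ± 1.6 TPM. Of the enzymes that set eIF2alpha phosphorylation, the phosphatase subunits PPP1R15A and PPP1R15B rose by 1.01 and 0.27. The kinase EIF2AK2 (PKR), a carrier, was borderline and not called in the fit reported (-0.30). It was called lower without siGCDH replicate 1 (-0.37, adjusted p = 0.0419, limma). It was also called lower with median scaling, quantile normalization or a robust fit (adjusted p = 0.028 to 0.0469, limma). A pseudocount of 0.1 or a filter at a mean of 5 TPM gave the same call (adjusted p = 0.0492 and 0.0352, limma).

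Of 11 biosynthetic targets of ATF4 6 were higher and 1 lower (median 0.45). Without the 1 ACTGAGA carrier among them 6 were higher and 0 lower of 10. ASNS, asparagine synthetase, was at 57.8, 59.6 and 51.7 TPM with siControl and 104, 113 and 107 TPM with siGCDH. It was higher in every siGCDH library (log2 fold change 0.92, SE 0.07, adjusted p = 7.96e-05). PSAT1 of serine synthesis rose from 140 ± 2.16 to 204 ± 4.97 TPM and the mitochondrial folate enzyme MTHFD2 from 160 ± 3.78 to 249 ± 5.08 TPM. SHMT2, the mitochondrial serine hydroxymethyltransferase and a carrier of ACTGAGA, went the other way, at 189, 192 and 208 TPM with siControl and 80.1, 76.8 and 89.9 TPM with siGCDH. Its siGCDH values were all far below the lowest control value (log2 fold change -1.25, SE 0.07, adjusted p = 2.92e-05). Amino acid transporters split, with 3 higher and 4 lower of 9. The glycine transporter SLC6A9 rose from 7.72 ± 0.901 to 13.9 ± 0.473 TPM and the glutamine transporter SLC1A5 from 129 ± 1.54 to 169 ± 7.48 TPM. The cystine transporter SLC7A11, a carrier, fell from 16.6 ± 1.12 to 7.73 ± 1.36 TPM. Of the stress effectors, CHAC1, which degrades glutathione, rose by 1.71, HERPUD1 of endoplasmic reticulum degradation by 0.53 and the translation repressor EIF4EBP1 by 0.42.

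Aminoacyl-tRNA synthetases of both compartments together fell more often than they rose (6 higher and 14 lower of 37, median -0.11). Among the cytosolic enzymes, many of which ATF4 is known to induce, 6 were higher and 8 lower of 20 (median -0.02). KARS1, the lysyl-tRNA synthetase of cytosol and mitochondria, was at 302, 303 and 298 TPM with siControl and 154, 158 and 167 TPM with siGCDH. The groups did not overlap (log2 fold change -0.91, SE 0.04, adjusted p = 1.18e-05). LARS1 for leucine fell as well (-0.55), and TARS1 for threonine (0.55) and CARS1 for cysteine (0.43) rose. Of the 17 mitochondrial enzymes 0 were higher and 6 lower, among them IARS2 for isoleucine (-0.73) and PARS2 for proline, a carrier (-1.63).

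The promoter of CHAC1 is printed because it holds the composite element that CHOP or C/EBP proteins and ATF4 share, searched on both strands as TGATGNAA and set in capitals. It is the RefSeq stretch from 250 bases before to 50 after the transcript start on GRCh38.p14: CHAC1 (chr15:40953221-40953520, plus strand).
CHAC1: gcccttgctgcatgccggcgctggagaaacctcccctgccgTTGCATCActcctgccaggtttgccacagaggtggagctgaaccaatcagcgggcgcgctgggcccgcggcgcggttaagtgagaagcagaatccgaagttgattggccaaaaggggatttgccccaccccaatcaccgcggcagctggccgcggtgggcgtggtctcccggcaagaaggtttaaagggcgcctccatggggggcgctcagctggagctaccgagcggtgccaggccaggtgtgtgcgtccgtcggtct
Of 33 members of the stress response list with such a promoter sequence, 7 (21.2%) held the element, beside 1.69% of the 10691 tested genes and 3.67% of all 27305 promoters in the table. The stress response list was chosen for genes of that response, so its share describes the list and says nothing of the knockdown. Among all genes called higher 2.11% of promoters held the element, and among those called lower 1.73%. Among genes higher by at least 1 on the log2 scale the share was 5.37% (8 of 149). Among those lower by at least 1 it was 2.4% (4 of 167). A match describes letters and not a bound site.

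Chaperones of the endoplasmic reticulum mostly rose. Of 10 tested, 6 were higher and 2 lower, and the 2 that fell, CALR and DNAJC3, both carry ACTGAGA. The membrane-bound relative of CALR, CANX, was at 310, 328 and 347 TPM with siControl and 573, 510 and 560 TPM with siGCDH. It rose in each siGCDH library (log2 fold change 0.74, SE 0.06, adjusted p = 1.17e-04) while CALR fell. HSPA5 (BiP) rose from 392 ± 4.01 to 476 ± 6.37 TPM, the cyclophilin PPIB from 605 ± 25.7 to 760 ± 23.7 TPM, and the disulfide isomerases PDIA6, PDIA3 and P4HB by 0.48, 0.39 and 0.16. XBP1, the factor spliced on stress of this organelle, rose by 0.37, CREB3L2, a carrier, fell with -0.35, and ERN1 (IRE1) and CREB3 were not called (0.23 and 0.15). In degradation of misfolded proteins DERL1 rose (0.42), and NPLOC4 fell (-0.21).

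Heat shock proteins differed by compartment. In the cytosol 8 of 12 were higher and 1 lower. The 1 that fell was the most abundant, the constitutive HSPA8, at 2414, 2402 and 2420.4 TPM with siControl and 1637, 1686 and 1668 TPM with siGCDH (log2 fold change -0.54, SE 0.02, adjusted p = 6.79e-06). Over both compartments the 8 rises became 5 without siControl replicate 1 or siGCDH replicate 3. DNAJB1, STIP1 and HSPH1, all cofactors of HSP70 or HSP90, rose by 0.45, 0.31 and 0.27. In mitochondria 0 of 9 were higher and 5 lower, including the HSP90 paralogue TRAP1 (-0.51), DNAJA3 (-0.43), the protease LONP1 (-0.26) and HSPD1, the HSP60 chaperonin (-0.17).

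Genes of the NRF2 pathway were more often lower than higher, 20 against 10 of 44 tested, with a median of -0.20. Leaving out the ACTGAGA carriers gave 15 lower and 9 higher of 36, with a median of -0.18. The rises were 6 without siControl replicate 2 or 3 and 5 without siGCDH replicate 1. Of the 9 factors and regulators 3 were higher and 1 lower. NFE2L2, which encodes NRF2, rose by 0.35 and its partner MAFK from 16.1 ± 1.32 to 26.6 ± 2.19 TPM. SQSTM1, the autophagy receptor that sequesters KEAP1 and a carrier of ACTGAGA, was at 781, 771 and 747 TPM with siControl and 571, 572 and 584 TPM with siGCDH. It fell in all siGCDH libraries (log2 fold change -0.41, SE 0.03, adjusted p = 7.60e-05).

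Iron genes held the most abundant members. FTH1, the heavy ferritin chain, fell by 0.97 on the log2 scale, and FTL, the light chain, was at 2706, 2624 and 2632 TPM with siControl and 1785, 1883 and 1837 TPM with siGCDH. The groups did not overlap in either (log2 fold change -0.53, SE 0.03, adjusted p = 1.84e-05 for FTL). FECH, which inserts iron into heme, fell from 26.3 ± 0.435 to 17.5 ± 1.16 TPM. HMOX1, heme oxygenase 1 and one of the best known NRF2 targets, went up, at 40.3, 41.8 and 37.9 TPM with siControl and 85, 84.5 and 89.3 TPM with siGCDH (log2 fold change 1.09, SE 0.06, adjusted p = 2.15e-05). Of the iron and heme group of 5, HMOX1 was higher and the other 4 were lower.

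Glutathione genes were 2 higher and 4 lower of 10, and thioredoxin and peroxiredoxin genes 2 higher and 2 lower of 5. GSR, glutathione reductase, fell from 33.5 ± 2.58 to 22.9 ± 1.03 TPM, GSTP1 from 650 ± 13.9 to 576 ± 17.7 TPM and the efflux pump ABCC1, a carrier, from 15.2 ± 0.914 to 10.9 ± 0.475 TPM, besides SLC7A11. PRDX1, an abundant peroxiredoxin and a carrier, was at 1172, 1137 and 1191 TPM with siControl and 682, 647 and 662 TPM with siGCDH, and TXNRD1, thioredoxin reductase, at 336, 339 and 324 TPM with siControl and 211, 180 and 195 TPM with siGCDH. Both were lower in every siGCDH library (log2 fold change -0.81, SE 0.03, adjusted p = 5.90e-06 for PRDX1, and log2 fold change -0.77, SE 0.06, adjusted p = 1.13e-04 for TXNRD1). The sulfiredoxin SRXN1, a carrier, rose (0.28). Of the reductases, NQO1, the quinone reductase used as a readout of NRF2, fell from 1256 ± 26.9 to 1044 ± 27.3 TPM and AKR1B1 from 199 ± 11 to 110 ± 1.98 TPM.

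Of the 6 genes listed under NADPH supply, TKT among them, 5 fell and 1 rose. Without TKT, the 1 carrier of ACTGAGA there, 4 fell and 1 rose of 5. TKT is also counted in the pentose phosphate list. ME1, malic enzyme, fell from 36.8 ± 0.391 to 28.2 ± 0.33 TPM and IDH1 rose from 61.9 ± 2.17 to 76.1 ± 0.771 TPM. In the pentose phosphate pathway 8 of 9 members fell and 0 rose, with a median of -0.38. Besides TKT, these included RPIA, ribose 5-phosphate isomerase, from 32.5 ± 1.29 to 16.2 ± 1.28 TPM and PRPS1, which makes phosphoribosyl pyrophosphate, from 52.1 ± 2.82 to 25.1 ± 0.429 TPM. TKT and PRPS1 carry ACTGAGA, and without the carriers 6 of 7 were lower (median -0.33). The core of the antioxidant response element, TGACNNNGC on both strands, was in 23.5% (8 of 34) of the promoters of the NRF2 list, in 15.2% of those of tested genes and in 13.6% of all promoters. This list was chosen for genes of the NRF2 pathway, so its share describes the list and says nothing of the knockdown.

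**Figure D4:**
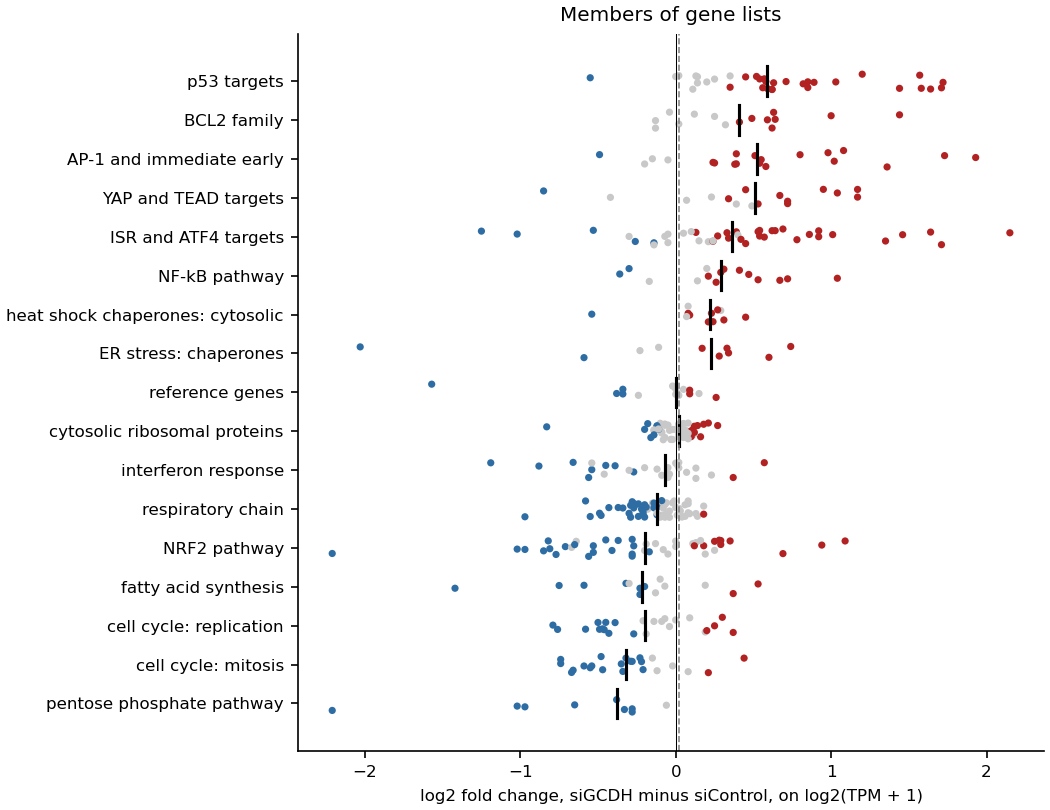
Log2 fold changes (siGCDH minus siControl) of the tested members of 17 gene lists or roles, 1 dot a gene, with a black bar at the median; the dashed line is the median of all genes tested, 0.02. The p53 targets, integrated stress response genes and AP-1 genes lie mostly right of the line, and the pentose phosphate pathway, mitotic and fatty acid genes left of it.

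Immediate early genes, which growth factor and stress kinases switch on, were higher in 16 of 20 cases and lower in 1, with a median of 0.52. JUN, a subunit of AP-1 and a carrier of ACTGAGA, was at 7.96, 8.62 and 8.51 TPM with siControl and 32.6, 28.1 and 29.4 TPM with siGCDH. All siGCDH values were well above the controls (log2 fold change 1.73, SE 0.09, adjusted p = 1.76e-05). EGR1, a zinc finger early gene, was at 11.4, 10.3 and 11.2 TPM with siControl and 46.2, 43.9 and 44 TPM with siGCDH, with no overlap (log2 fold change 1.93, SE 0.07, adjusted p = 4.53e-06). FOSL1 rose from 255 ± 5.63 to 520 ± 35.4 TPM, FOSB from 3.99 ± 1.33 to 11.5 ± 1.38 TPM and JUNB from 64.4 ± 0.82 to 91.9 ± 4.51 TPM. The nuclear receptor NR4A1 rose by 0.54 and IER5 by 0.55, and IER3 was the member that fell (-0.49).

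Feedback genes of the MAP kinases rose among the phosphatases, 5 of 6 higher, and split among the other members, 2 higher and 3 lower of 11. DUSP10, which dephosphorylates p38 and JNK, was at 18.5, 21.2 and 16.4 TPM with siControl and 52.7, 54.1 and 55.2 TPM with siGCDH, and DUSP5, which acts on nuclear ERK, at 20.4, 18.1 and 16.5 TPM with siControl and 38.1, 40.7 and 42.1 TPM with siGCDH. Neither overlapped between the groups (log2 fold change 1.49, SE 0.09, adjusted p = 4.82e-05 for DUSP10, and log2 fold change 1.10, SE 0.09, adjusted p = 1.38e-04 for DUSP5). DUSP7 and DUSP1 rose by 0.46 and 0.61, and DUSP6 was not called (0.17) except without siGCDH replicate 2 (0.23, adjusted p = 0.0263, limma). SPRY4, a carrier, and ETV4 fell (-0.47 and -0.23), and the cyclin CCND1 rose (0.44).

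Targets of YAP and TEAD, of which many are also AP-1 targets, were higher in 10 of 16 and lower in 1 (median 0.51). AXL, a receptor tyrosine kinase of undifferentiated melanoma, was at 118, 117 and 116 TPM with siControl and 271, 247 and 275 TPM with siGCDH. The siGCDH libraries were all above the controls (log2 fold change 1.17, SE 0.05, adjusted p = 9.37e-06). CCN2, connective tissue growth factor, rose from 35.9 ± 2.67 to 74.5 ± 1.9 TPM, NT5E, the ectonucleotidase CD73, from 92.2 ± 2.19 to 179 ± 6.66 TPM and AMOTL2 from 51.4 ± 1.03 to 85.3 ± 5.78 TPM. Cytokines were higher in 8 of 13 and lower in 2, led by IL11, by IL24, from 405 ± 7.7 to 924 ± 40.8 TPM, and by the EGF receptor ligand AREG, from 2.34 ± 0.214 to 6.66 ± 0.793 TPM. Chemokines were not higher in any of 7: CCL2 and CXCL8 (-0.47) fell, and CXCL1 (-0.09) and CXCL3 (-0.20) were not called. In the NF-kB pathway 10 of 15 were higher, the inhibitor NFKBIB from 25.6 ± 1.02 to 53.7 ± 1.54 TPM and the subunits NFKB1, NFKB2 and RELB by 0.41, 0.31 and 0.47. Of the TGF-beta targets, 6 of 15 rose, with ID1 (0.78) and ID3 (0.68), and 4 fell, with TGFBI (-0.96) and the ligand TGFB1 (-0.65).

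The promoter of IL1RL1, the receptor gene with the large rise above, is shown for its AP-1 element, searched as TGANTCA and set in capitals, on GRCh38.p14: IL1RL1 (chr2:102337007-102337306, plus strand).
IL1RL1: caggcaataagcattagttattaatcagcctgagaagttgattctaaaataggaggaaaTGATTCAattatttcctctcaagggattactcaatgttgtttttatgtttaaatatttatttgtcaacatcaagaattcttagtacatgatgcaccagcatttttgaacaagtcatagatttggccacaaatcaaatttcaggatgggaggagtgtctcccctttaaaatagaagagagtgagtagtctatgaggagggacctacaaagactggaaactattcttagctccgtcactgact
The element was in 16.8% (25 of 149) of the promoters of genes higher by at least 1 and in 4.59% of those of all tested genes. Among genes lower by at least 1 the share was 5.39% (9 of 167). Among all genes called higher it was 6.12%, and among all called lower 3.62%. Over all 27305 promoters the share was 7.76%.

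Genes of the cell cycle were more often lower than higher. Of 64 tested, 13 were higher and 30 lower. In G1 7 of 17 were higher and 2 lower, in replication 4 and 11 of 24, and in mitosis 2 and 17 of 23, with medians of 0.14, -0.20 and -0.32. BIRC5, the survivin of the chromosomal passenger complex, was at 59.2, 60.8 and 57.1 TPM with siControl and 35.5, 36.8 and 39 TPM with siGCDH. CENPF, a kinetochore protein, was at 101, 90.5 and 94.1 TPM with siControl and 52, 61.3 and 56.7 TPM with siGCDH. Both were lower in all siGCDH libraries (log2 fold change -0.66, SE 0.06, adjusted p = 2.27e-04 for BIRC5, and log2 fold change -0.74, SE 0.07, adjusted p = 3.44e-04 for CENPF). The spindle checkpoint kinase BUB1B fell from 60.1 ± 4.3 to 35.5 ± 2.38 TPM and cyclin B1, CCNB1, from 329 ± 18.6 to 226 ± 8.58 TPM.

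In replication MCM3, a subunit of the replicative helicase, was at 89.2, 93.6 and 91.7 TPM with siControl and 52.2, 50.8 and 54.4 TPM with siGCDH, lower without overlap (log2 fold change -0.79, SE 0.05, adjusted p = 4.85e-05). GINS1 fell from 16.4 ± 1.11 to 9.28 ± 0.479 TPM and the methylation reader UHRF1 from 53.4 ± 0.672 to 39.4 ± 0.927 TPM. PCNA, the sliding clamp and also a p53 target, rose from 300 ± 11 to 389 ± 13.2 TPM. In G1 the kinase CDK4, a carrier of ACTGAGA, was at 391, 353 and 364 TPM with siControl and 189, 167 and 201 TPM with siGCDH and fell (log2 fold change -0.99, SE 0.07, adjusted p = 8.08e-05). Its relative CDK6 and the cyclins CCND1 and CCND3 rose, by 0.45, 0.44 and 0.31. Without the ACTGAGA carriers 16 of 22 mitotic genes were lower.

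Promoters of CENPF and MCM3 are printed for 2 elements of cycling genes. The first is the CCAAT box, which occurs 4 times in CENPF (chr1:214602945-214603244, plus strand), and the second the E2F element, searched as TTTNGCGC, in MCM3 (chr6:52284693-52284992, minus strand), both on GRCh38.p14 with the elements in capitals.
CENPF: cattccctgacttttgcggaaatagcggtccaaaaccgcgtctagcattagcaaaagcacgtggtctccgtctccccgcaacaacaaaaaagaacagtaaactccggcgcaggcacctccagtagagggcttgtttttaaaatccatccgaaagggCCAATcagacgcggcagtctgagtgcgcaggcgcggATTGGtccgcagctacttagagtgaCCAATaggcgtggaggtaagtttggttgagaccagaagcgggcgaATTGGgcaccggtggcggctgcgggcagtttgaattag
MCM3: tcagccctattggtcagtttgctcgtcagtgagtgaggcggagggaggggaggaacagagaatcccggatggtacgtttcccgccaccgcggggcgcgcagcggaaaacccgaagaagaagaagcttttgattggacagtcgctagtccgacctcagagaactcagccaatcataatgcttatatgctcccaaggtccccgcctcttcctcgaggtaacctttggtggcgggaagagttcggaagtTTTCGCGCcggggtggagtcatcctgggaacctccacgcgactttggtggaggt
CCAAT on either strand was in 77.8% (14 of 18) of the mitotic promoters and in 37.2% of those of all tested genes. The E2F element was in 42.9% (9 of 21) of the replication promoters and in 3.11% of those of all tested genes. These lists were chosen as genes of these phases, so the shares describe the lists and say nothing of the knockdown.

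Nuclear genes of the respiratory chain were more often lower than higher, by small amounts, 29 of 64 lower and 1 higher, with a median of -0.12. Without siControl replicate 1 the number lower was 19. The largest fall named here was in UQCRC1, a core subunit of complex III, at 301, 318 and 261 TPM with siControl and 137, 153 and 159 TPM with siGCDH (log2 fold change -0.97, SE 0.08, adjusted p = 1.71e-04). In complex I NDUFA10 and NDUFS1, both carriers, fell (-0.48 and -0.37). Succinate dehydrogenase fell in SDHA (-0.34) and the carrier SDHC (-0.55), and SDHB (0.01) and SDHD (-0.09) were not called. In complex IV COX5A, a carrier, and COX5B fell (-0.49 and -0.26) and COX6A1 was the only member higher (0.18). The ATP synthase subunits ATP5PD and ATP5F1A fell, with log2 fold changes of -0.43 and -0.27. Leaving out the carriers, 25 of 58 were lower.

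The 13 mRNAs of the mitochondrial genome gave 3 higher and 5 lower, or 3 lower without siControl replicate 3. MT-CO1, which encodes the catalytic subunit of complex IV, was at 1937, 1914 and 1957 TPM with siControl and 1448, 1373 and 1466 TPM with siGCDH (log2 fold change -0.44, SE 0.03, adjusted p = 6.42e-05). MT-CO3 and MT-ND4 fell too (-0.32 and -0.37), and MT-ATP6 was not called (-0.11) except without siControl replicate 1 (-0.15, adjusted p = 0.0406, limma). In the tricarboxylic acid cycle 5 of 17 genes were lower and 0 higher. MDH1, the cytosolic malate dehydrogenase, was at 309, 299 and 277 TPM with siControl and 136, 152 and 161 TPM with siGCDH, lower in every siGCDH library (log2 fold change -0.98, SE 0.07, adjusted p = 7.75e-05). Mitochondrial IDH2 fell from 18.8 ± 1.17 to 10.7 ± 0.819 TPM, while MDH2 (-0.08) and the glutamate enzyme GLUD1 (-0.10) were not called. With quantile normalization GLUD1 was called lower (-0.12, adjusted p = 0.0406, limma). The pyruvate carrier subunit MPC1 fell (-0.53) and pyruvate carboxylase PC rose (0.29). Glycolysis and hypoxia genes went both ways (8 higher and 9 lower of 28), or 5 higher without siControl replicate 2 or siGCDH replicate 3, with PGK1 and ALDOC lower (-0.38 and -0.67) and PKM and HIF1A higher (0.16 and 0.35).

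Lipid synthesis fell at its fatty acid arm. Of 14 genes 7 were lower and 2 higher. SCD, which puts the first double bond into saturated fatty acids, was at 251, 251 and 251 TPM with siControl and 96.3, 88.7 and 95 TPM with siGCDH. The siGCDH libraries were all far below the controls (log2 fold change -1.42, SE 0.04, adjusted p = 2.35e-06). ACLY, which makes cytosolic acetyl-CoA from citrate, was at 154, 154 and 149 TPM with siControl and 98.2, 80.9 and 91.9 TPM with siGCDH, lower without overlap (log2 fold change -0.75, SE 0.07, adjusted p = 2.78e-04). ACSS2, which makes it from acetate, fell from 34.5 ± 1.74 to 22.6 ± 1.05 TPM, and the acyl-CoA synthetase ACSL1 rose from 24.5 ± 1.56 to 35.8 ± 0.914 TPM. In sterol synthesis 8 of 28 were lower, among them HMGCS1 (-0.55), MVK (-0.67), FDPS (-0.43) and FDFT1 (-0.46), and 5 were higher, among them the cholesterol exporter NPC1 of the lysosome (0.50). Those 5 rises became 2 or 3 without any one of the 6 libraries.

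RNA processing lists moved in both directions and held large single changes. Of 26 ribonucleoprotein genes 7 were lower and 3 higher: beside HNRNPC, PCBP2 fell from 733 ± 10.7 to 527 ± 11.7 TPM and HNRNPA1 by less (-0.17). Splicing factors were 6 higher and 7 lower of 21, with the kinases SRPK1 down (-0.75) and CLK1 up (0.61). In nonsense-mediated decay RBM8A, a core protein of the exon junction complex, was at 210, 202 and 230 TPM with siControl and 457, 457 and 435 TPM with siGCDH, higher in each siGCDH library (log2 fold change 1.07, SE 0.05, adjusted p = 1.76e-05). SMG9 rose from 68.8 ± 4.59 to 128 ± 2.67 TPM and SMG5, a carrier, fell from 74.8 ± 0.217 to 51.1 ± 1.65 TPM. RBM8A and HNRNPC have processed copies in the genome to which reads could be assigned.

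Cytosolic ribosomal proteins stayed near the centre, 10 higher and 8 lower of 57 with a median of 0.02. The rises were 5 without siControl replicate 2, the falls 17 without siGCDH replicate 2 and 5 without siGCDH replicate 3, and after median scaling 3 rose and 5 fell. RPS28, a carrier of ACTGAGA, stood apart at 1326, 1317 and 1401 TPM with siControl and 758, 748 and 773 TPM with siGCDH (log2 fold change -0.83, SE 0.03, adjusted p = 5.90e-06). Translation factors moved more: EIF1AX of the scanning complex was at 176, 167 and 152 TPM with siControl and 70.3, 70.5 and 58.5 TPM with siGCDH, and the release factor GSPT1 at 216, 209 and 213 TPM with siControl and 97.9, 94.3 and 101 TPM with siGCDH. Both fell in all siGCDH libraries (log2 fold change -1.30, SE 0.09, adjusted p = 5.77e-05 for EIF1AX, and log2 fold change -1.11, SE 0.04, adjusted p = 5.59e-06 for GSPT1). EIF3C fell from 756 ± 63.8 to 328 ± 22.7 TPM, a row that shares its reads with the near-identical EIF3CL and is therefore uncertain, and the elongation factors went apart, EEF2 up (0.23) and EEF1D, a carrier, down (-0.59). Of 74 mitochondrial ribosomal proteins 21 were lower and 14 higher. KPNA2, an importin alpha, was at 286, 295 and 270 TPM with siControl and 103, 106 and 115 TPM with siGCDH, with no overlap (log2 fold change -1.39, SE 0.06, adjusted p = 6.74e-06), in a list of import factors with 5 higher and 4 lower of 12, or 3 and 2 higher without siControl replicate 2 and siGCDH replicate 3. In the small RNA machinery TNRC6A, the partner of Argonaute proteins, rose from 31.6 ± 5.53 to 57.6 ± 7.37 TPM, and AGO2, a carrier, was not called (0.37) except without siGCDH replicate 2 (0.54, adjusted p = 0.0134, limma).

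Melanocyte genes and genes of the invasive melanoma state did not move as blocks. Of 14 lineage genes 4 were higher and 7 lower. MITF, the master factor of the lineage, was at 12.2, 11.4 and 11.2 TPM with siControl and 24.5, 19.7 and 22.2 TPM with siGCDH and rose (log2 fold change 0.87, SE 0.10, adjusted p = 5.70e-04). S100B, a calcium-binding marker, was at 111, 117 and 116 TPM with siControl and 49.4, 48.7 and 54.4 TPM with siGCDH and fell in all siGCDH libraries (log2 fold change -1.16, SE 0.06, adjusted p = 1.77e-05). SOX10 rose from 457 ± 14.5 to 530 ± 28.9 TPM, and LEF1, the carrier SOX5 and the proteoglycan CSPG4 fell, with log2 fold changes of -0.53, -0.50 and -0.36. Of 22 invasive genes 8 rose and 5 fell. AXL and the nerve growth factor receptor NGFR, from 17.3 ± 1.35 to 29.5 ± 0.274 TPM, were up, and TWIST1 (-0.70) and SOX2 (-0.99) down. SPARC, a secreted matrix glycoprotein and a carrier, was at 1404, 1421 and 1415 TPM with siControl and 2540.3, 2397 and 2581 TPM with siGCDH, higher without overlap (log2 fold change 0.83, SE 0.03, adjusted p = 5.20e-06).

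Matrix and adhesion genes were 12 higher and 15 lower of 59. The hyaluronan receptor CD44 was at 414, 451 and 448 TPM with siControl and 905, 817 and 876 TPM with siGCDH and the fibronectin receptor chain ITGA5 at 91.9, 92.4 and 86.2 TPM with siControl and 186, 177 and 185 TPM with siGCDH. All siGCDH libraries were above the controls in both (log2 fold change 0.98, SE 0.05, adjusted p = 1.81e-05 for CD44, and log2 fold change 1.01, SE 0.05, adjusted p = 1.41e-05 for ITGA5). Osteopontin SPP1 rose from 8.68 ± 1.5 to 21.2 ± 0.735 TPM, the urokinase receptor PLAUR from 59.1 ± 2.74 to 107 ± 3.2 TPM, TIMP1 from 516 ± 32.3 to 756 ± 36.2 TPM and the laminin chain LAMB3 by 0.83. Gelatinase MMP2 fell from 193 ± 5.6 to 108 ± 8.74 TPM and the inhibitor TIMP3, a carrier, from 415 ± 4.44 to 256 ± 7.3 TPM. Keratins KRT18 and KRT81 fell (-0.81 and -0.62) and KRT80, a carrier, rose (0.58). Of the serpins, SERPINA5, a carrier, fell from 12 ± 0.411 to 4.61 ± 0.229 TPM. Of 36 markers of other cell types 10 could be tested, and 3 were higher: KRT14 of keratinocytes, from 20 ± 0.731 to 40.6 ± 2.57 TPM, CLDN4 of epithelium, from 3.66 ± 0.252 to 12.5 ± 0.904 TPM, and CD68 of macrophages, from 32.1 ± 2.6 to 43.2 ± 2.45 TPM. The summed level of the 6 keratinocyte markers was 53.5 to 57.5 TPM with siControl and 74.0 to 80.2 TPM with siGCDH, that of the 6 epithelial markers 3.79 to 4.51 and 13.4 to 14.9 TPM, and that of the 6 immune markers 33.4 to 40.2 and 43.9 to 51.4 TPM. The defining markers CDH1, EPCAM, PTPRC, PECAM1 and ALB stayed under 1 TPM on average, with CDH1 at 0. The other 7 markers tested, KRT10, LYZ, KDR, LUM, DCN, PDGFRA and SERPINA1, were not called. KRT10 lay at 32.5 to 37.8 TPM with siControl and 33.8 to 36.3 TPM with siGCDH. The summed level of the 6 fibroblast markers was 14.5 to 17.3 TPM with siControl and 12.5 to 14.9 TPM with siGCDH. That of the 6 endothelial markers was 2.67 to 3.58 and 4.18 to 4.23 TPM, and that of the 6 hepatocyte markers 4.61 to 5.54 and 5.74 to 6.74 TPM.

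Interferon and antigen genes were more often lower than higher. Of the lists, 8 of 28 interferon-response genes were lower and 2 higher, and 5 of 12 class I genes lower and 2 higher. Without the ACTGAGA carriers 8 of 27 interferon-response genes were lower and 2 higher. Of the class I genes 2 of 7 were then lower and 1 higher, with a median of -0.06. The 8 interferon genes lower were 5 without siControl replicate 1 or 2 or siGCDH replicate 2. IFITM3, a membrane protein that blocks viral entry, fell from 430 ± 11.7 to 314 ± 9.79 TPM, OAS3 from 20.3 ± 0.201 to 12.5 ± 0.746 TPM and IFIT2 from 5.51 ± 0.125 to 1.86 ± 0.313 TPM, while ISG20 rose (0.57). Of the class I genes, HLA-B and HLA-C, both carriers, fell (-0.46 and -0.59), the peptide transporter chain TAP2 rose from 68.9 ± 5.72 to 116 ± 2.27 TPM and B2M was not called (0.00). HLA genes resemble each other closely, and reads can be split between them.

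Degradation genes split. BECN1, a core autophagy protein and a carrier, was at 104, 109 and 109 TPM with siControl and 33.2, 41.9 and 38 TPM with siGCDH. It fell in each siGCDH library (log2 fold change -1.49, SE 0.08, adjusted p = 3.07e-05). The lipid kinase PIK3C3 with which it forms a complex, also a carrier, fell from 102 ± 5.53 to 58 ± 3.56 TPM, and GABARAPL1 rose from 50.4 ± 2.16 to 87.7 ± 5.06 TPM. The autophagy list had 9 higher and 7 lower of 28, the lysosome list 11 and 7 of 35, and the proteasome list 9 and 8 of 34, with medians of 0.01, 0.06 and -0.02. In the last, the regulatory particle had 8 of 17 higher, PSMD8 and PSMD7 both by 0.28, and the core 1 of 17. In both lists the 9 rises became fewer when certain single libraries were left out. The autophagy rises were 5 without siControl replicate 2 or 3 or siGCDH replicate 3 and 4 without siGCDH replicate 1. The proteasome rises were 5 without siControl replicate 1 or siGCDH replicate 2 and 4 without siControl replicate 2 or siGCDH replicate 3. Over all genes the 2715 rises became 1858 to 2478 without 1 library.

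The remaining lists were short of a common direction. Of 22 chromatin enzymes 4 were higher and 3 lower, the latter HDAC3, a carrier (-0.59), SMARCA4 (-0.42) and EZH2 (-0.33). Of 13 histone genes 5 were higher, such as H1-2 (0.48) and H2BC5 (0.60), and 2 or 3 were higher without siControl replicate 1, siControl replicate 2, siGCDH replicate 1 or siGCDH replicate 3. In the MYC network, 7 higher and 3 lower of 28, the antagonist MXD1 rose from 4.92 ± 2.01 to 11.3 ± 0.942 TPM, and 2 to 4 members were higher without any one library other than siGCDH replicate 2. Of the cytoskeleton genes 11 were higher and 10 lower of 36, with RHOB up (0.78) and the formin DIAPH1 down (-0.49). Of 8 receptors coupled to G proteins 3 rose, among them S1PR1 and LPAR6 (0.74), and the thrombin receptor F2R fell (-0.32).

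Of 15 commonly used reference genes 3 were higher and 4 lower, with a median log2 fold change of 0.00. GAPDH, the glycolytic enzyme, was at 10948, 10773 and 10836 TPM with siControl and 10766, 10764 and 10685 TPM with siGCDH and not called (-0.02). The transferrin receptor TFRC, a carrier of ACTGAGA, was the exception at 141, 137 and 137 TPM with siControl and 45.9, 41.5 and 50.6 TPM with siGCDH (log2 fold change -1.57, SE 0.07, adjusted p = 1.41e-05). By gene class, 2358 of 12403 protein-coding genes were higher and 2260 lower. Among called genes, rises outnumbered falls in long intergenic RNAs (90 against 38 of 636) and antisense RNAs (86 against 36 of 752). They also did in processed transcripts (31 against 8 of 154) and transcribed unprocessed pseudogenes (40 against 4 of 200). Of all genes tested, 17.9% were higher and 15.7% lower. In long intergenic and antisense RNAs both shares were smaller, with 20.1% and 16.2% called against 33.6% of all genes. In processed transcripts and these pseudogenes the share higher was slightly larger than over all genes and the share lower smaller. Whether counting used the strand is not given in the sources used here, so reads of antisense genes and their partners may not be told apart. Of 54 small nucleolar and 107 microRNA rows, which a poly(A) library does not measure well, 0 and 1 were higher and 0 were lower.

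Batch 1 of A375 compared the same knockdown with its own 3 controls, in libraries of a kit that counts 3' ends. There 1018 of 12868 genes (7.91%) were called, 152 higher (1.18%) and 866 lower (6.73%), and after scaling each library to its median 207 were higher and 294 lower. The all-gene median moved from -0.20 to -0.03 with that scaling. The batch 1 libraries differed in makeup between the groups: the 50 most abundant genes held 40.3 to 44.1% of TPM with siControl and 51.8 to 53.4% with siGCDH, whose part in the falls of that batch was not tested. Of the 292 genes that rose by at least 1 in batch 2, 182 were tested in batch 1. Of these, 155 had a fold change above 0, 34 were called higher and 2 lower, and the median was 0.77. Of the 225 that fell by at least 1, 185 were tested: 183 were below 0, 83 were called lower and 0 higher, with a median of -1.22. Over all 2715 rises of batch 2 of any size, 2402 were tested in batch 1. Of these, 1425 were above 0 and 977 below it, 88 were called higher and 43 lower, and the median was 0.12. Over all 2384 falls, 2188 were tested: 1978 were below 0, 486 were called lower and 0 higher, with a median of -0.60. The 7329 genes tested there but not called in batch 2 had a median of -0.20.

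For several large falls the 2 batches lay close. TKT had a log2 fold change of -2.00 in batch 1 and -2.21 in batch 2, CALR -2.42 and -2.03, SCD -1.65 and -1.42, and KPNA2 -2.07 and -1.39. For the rises the batch 1 values were lower: IL11 1.16 against 1.92, ANXA2 1.10 against 1.66, BTG2 1.15 against 1.71 and ASNS 0.44 against 0.92. Some genes called in batch 2 had the other sign in batch 1, such as BAX (-0.77 against 0.59), PPIB (-0.48 against 0.33) and TAP2 (-0.27 against 0.74). The all-gene median of batch 1 was -0.20, and BAX was not called lower there. The difference between the batches was not tested, since kit and batch cannot be told apart. As lists, the p53 targets had a median of 0.39 (6 higher and 0 lower of 32) in batch 1 and the pentose phosphate pathway -0.62 (0 higher and 3 lower of 9). Beside the all-gene median of -0.20, the integrated stress response had a median of -0.08 (5 higher and 3 lower of 40) there, the immediate early genes -0.04 (1 higher and 1 lower of 18) and the mitotic genes -0.21 (0 higher and 2 lower of 23).

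The last comparison asks where the response of A375 differed from that of the other cells. SK-Hep1 is an established line of liver origin with endothelial features, and it and the libraries labelled SKBR3 each had 3 siControl and 3 siGCDH libraries. The difference of the effects was fitted as an interaction over 12 libraries. Both fits use the same 6 A375 libraries, so they are not independent, and cell line and batch cannot be told apart in them. Against SK-Hep1, 7183 of 15548 genes (46.2%) were called, with a higher effect in A375 for 2698 and a lower one for 4485, or 3326 and 3608 after median scaling. Against the libraries labelled SKBR3, 8643 of 16820 (51.4%) were called, 2447 higher and 6196 lower, or 3739 and 4237 after median scaling. The all-gene median of the difference was -0.14 and -0.26 before scaling and -0.05 and -0.06 after it, so small differences are not read here. The differences given below kept their sign in all alternatives run, apart from that of SCD from the libraries labelled SKBR3, which lay between 0.00 and 0.25.

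The effect on several stress genes differed between A375 and the other cells. HMOX1, 1.09 in A375, was -2.95 in SK-Hep1 and -2.17 in the libraries labelled SKBR3, a difference of 4.04 (adjusted p = 9.50e-09) and 3.26 (adjusted p = 8.11e-08, both by limma). HMGA2, 1.63 in A375, was -1.46 and -1.97 in the others (differences 3.09, adjusted p = 7.20e-09, and 3.60, adjusted p = 5.58e-10). Of the ATF4 targets, ASNS was -0.39 and -1.23 there (differences 1.31, adjusted p = 3.36e-07, and 2.15, adjusted p = 4.25e-08), and SLC6A9 -1.88 and -1.20 (differences 2.66, adjusted p = 2.26e-06, and 1.97, adjusted p = 8.27e-05). The list of the integrated stress response had medians of -0.10 and -0.19. Its effect was higher in A375 for 23 members and lower for 6 against SK-Hep1 (after scaling 25 and 3), and for 23 and 5 against the libraries labelled SKBR3 (after scaling 27 and 2).

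Mitotic genes, with a median of -0.32 in A375 batch 2, had medians of 0.31 in SK-Hep1 and 0.33 in the libraries labelled SKBR3, and the effect in A375 was lower for 17 of 23 members against SK-Hep1 (17 after scaling) and for 17 of 23 against the libraries labelled SKBR3 (15 after scaling). CENPF was 0.96 and 0.93 in the others (differences -1.70, adjusted p = 3.33e-06, and -1.67, adjusted p = 3.32e-07), and DEPDC1 1.03 and 1.13 (differences -2.81, adjusted p = 2.65e-07, and -2.92, adjusted p = 8.11e-08). PRR11 was 1.20 and 0.47 (differences -3.14, adjusted p = 4.78e-09, and -2.41, adjusted p = 2.53e-08). KPNA2 was 0.73 and 0.27 (differences -2.11, adjusted p = 3.80e-09, and -1.66, adjusted p = 3.70e-08).

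SNHG29 and GAS5, non-coding hosts of small nucleolar RNAs, also differed in effect. SNHG29 was 0.30 in A375, -2.06 in SK-Hep1 and -3.42 in the libraries labelled SKBR3 (differences 2.37, adjusted p = 7.41e-13, and 3.73, adjusted p = 8.33e-14), and GAS5 0.64, -1.08 and -1.54 (differences 1.72, adjusted p = 9.50e-09, and 2.17, adjusted p = 1.86e-09). Cytosolic ribosomal protein genes had medians of -0.19 and -0.25 there, against 0.02 in A375. The effect in A375 was higher for 36 of them against SK-Hep1 (43 after scaling) and for 40 against the libraries labelled SKBR3 (53 after scaling).

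Other genes that fell in A375 differed among the cells. SCD was -2.01 and -1.44 (differences 0.59, adjusted p = 1.75e-05, and 0.02, adjusted p = 0.734, or 0.25, adjusted p = 7.04e-04, after median scaling). The effects on CALR and FTH1 were lower in A375 than in the other cells: CALR was -0.69 and -0.12 (differences -1.34, adjusted p = 3.57e-09, and -1.90, adjusted p = 6.28e-09) and FTH1 0.35 and 0.13 (differences -1.32, adjusted p = 2.49e-09, and -1.11, adjusted p = 8.05e-09). Among p53 targets BTG2 was 1.27 and 0.38 (differences 0.45, adjusted p = 0.00275, and 1.33, adjusted p = 1.14e-06), and the whole list had medians of 0.86 in SK-Hep1 and 0.37 in the libraries labelled SKBR3. The knockdown of GCDH itself measured -1.48 and -1.78 (differences -0.74, adjusted p = 0.00239, and -0.43, adjusted p = 0.076, or -0.57, adjusted p = 0.0136, without siGCDH replicate 2 of the libraries labelled SKBR3). A larger loss of the target in A375 than in SK-Hep1 therefore stands beside each difference from SK-Hep1, and its part in them was not tested.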

How the data were processed

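The authors deposited 1 table of TPM values for 24 libraries, with genes in rows. Per the submitters' processing notes, the tools were cutadapt 2.3, STAR 2.7.0d and RSEM 1.3.1, and the build hg38. The sources used here do not give the annotation or the strand setting. Per the labels' protocols, total RNA was taken 48 h after transfection, and the libraries of batch 2 were poly(A)-selected, directional and read as single 75-base reads. TPM keeps no read depth, so no count model was used and no counting interval is given.

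From the deposited TPM values, log2(TPM + 1) was fitted with limma 3.58.1 (R 4.3.3, empirical Bayes with a trend) over the 15185 genes with a mean of 1 TPM or more in the 6 libraries, and p-values were adjusted by Benjamini-Hochberg, a gene being called under 0.05. The pseudocount of 1 understates folds of scarce genes. Differences of effects were interaction terms over 12 libraries. All 24 sample columns were used or matched, and 0 were set aside. Sequences were read from GENCODE 29 and RefSeq with Python 3.11.15.

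Genes were named by rule. The 20 largest rises and falls were taken among called genes with an approved symbol whose groups did not overlap and whose higher mean reached 5 TPM. Added to them were the 8 largest changes in TPM each way and the 5 largest differences each way. From each list role came up to 4 members with the smallest adjusted p besides its most abundant member. In all 284 genes are given, ERBB2 alone outside this rule, and some that it names are not reported here. The 47 gene lists (1185 genes tested) and the members were chosen with earlier results of these data known.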

Additional observations from a re-analysis of the deposited data

Results flagged for a closer look

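The effect of siGCDH in A375 batch 2 differed from that in SK-Hep1 for 7183 genes and from that in the libraries labelled SKBR3 for 8643, by limma's interaction test. Both comparisons share the A375 libraries. The values below are differences of log2 fold changes, A375 minus the other cells, first for SK-Hep1 and then for the libraries labelled SKBR3. They were higher in A375 for HMOX1 (4.04 and 3.26), HMGA2 (3.09 and 3.60), SNHG29 (2.37 and 3.73), SLC6A9 (2.66 and 1.97), GAS5 (1.72 and 2.17), ASNS (1.31 and 2.15) and BTG2 (0.45 and 1.33). They were lower in A375 for PRR11 (-3.14 and -2.41), DEPDC1 (-2.81 and -2.92), KPNA2 (-2.11 and -1.66), CENPF (-1.70 and -1.67), CALR (-1.34 and -1.90) and FTH1 (-1.32 and -1.11). For 2 genes the difference passed the test against SK-Hep1 alone: SCD, at 0.59, and GCDH itself, at -0.74. No cause of any of these differences was tested, and cell line and batch cannot be told apart.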

How the results depend on the processing

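In batch 2 the count of called genes stayed within 1.5 times of 5099 under each alternative run (pseudocounts of 0.1 and 5, no filter, a filter at a mean of 5 TPM, median scaling, quantile normalization, a robust fit, no trend and the replicate block). Leaving out 1 library gave 3742 to 4503 genes, 1858 to 2478 of them higher and 1786 to 2051 lower. GCDH stayed between -2.27 and -2.15. With the replicate number as a block 2262 were higher and 2091 lower. AADAT alone of the single genes given lost its call there. Deviations of same-numbered siControl and siGCDH libraries correlated at 0.139, -0.0142 and -0.0629, while siControl 2 correlated best with siGCDH 3 (0.101) and siControl 3 with siGCDH 2 (0.106), so the numbers were not taken as pairs. Batch 1 was less stable. Its 1018 genes became 501 after median scaling (294 lower), 85 without the trend (14 higher and 71 lower), 357 with the replicate block (43 higher and 314 lower) and 214 to 416 without 1 library (39 to 77 higher and 170 to 339 lower). The cause was not tested. Leaving out 1 library gave 6624 to 6906 differences from SK-Hep1 and 8027 to 8302 from the libraries labelled SKBR3, where median scaling raised the higher ones from 2447 to 3739. Of 259 single genes called, 249 were called in the same direction under each alternative, and 0 reversed. COX6A1, GSTP1, HNRNPA1, HSPD1, P4HB, PKM, SOX10 and SUGCT lost their calls without the trend. Lists with fewer than 5 calls in a direction moved most easily. Low levels limit precision, with a median standard error of 0.23 between 1 and 5 TPM.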
